A study of Mus musculus with 6 samples.

Results

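The hypoxia response and glycolysis genes described here are 41 mouse genes in 3 lists: 6 genes of the pathway of the hypoxia inducible factors (HIF), 19 HIF targets and 16 glycolytic enzymes. They were listed by gene symbol, by a choice made with earlier results of these data known, out of 19057 genes with a symbol among the probes of the array. Vegfa and Slc2a1, a pair of well known HIF targets, were kept out of these lists and are given apart. A probe was taken as expressed where its detection p-value, which sets its signal against negative control beads, was under 0.05 on at least 3 of the 6 arrays. A probe was found for 38 of the 41 genes (76 probes), and 34 genes (57 probes) were expressed, of 11097 expressed genes and 20721 expressed probes in all. The probe annotation used here pairs no probe with the symbols Hk2, Gpi1 and Eno1, which were not analysed here. Slc16a3, Bnip3, Car9 and Pfkfb3 had probes that were undetected on every array.

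Total RNA of whole retinas at postnatal day 8 (P8) was hybridized to Illumina Mouse-WG6 BeadChips, 1 array for each of 3 mice labelled Lrp5-/- and 3 WT mice. The mice labelled Lrp5-/- carry the knockout allele Lrp5tm1Dgen (strain B6.129P2-Lrp5tm1Dgen/J, made by Deltagen), which is carried in the germline and so by all cells, and the WT mice are C57BL/6J mice that no source used here calls littermates. LRP5 is a co-receptor for Wnt ligands and Norrin that retinal vessels need for their growth into the deeper layers of the retina, and the comparison asks which retinal genes differ in its absence as these layers begin to form. The methods call each sample a biological replicate, and the number of arrays limits the precision of every value.

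HIF is a pair of proteins, an oxygen sensitive alpha subunit (Hif1a or Epas1) and a stable partner (Arnt). Where oxygen is plentiful the prolyl hydroxylases of the Egln family mark the alpha subunit, the Vhl ubiquitin ligase has it destroyed, and the pathway is therefore steered mostly through protein and not through the mRNA of Hif1a. Where oxygen is scarce the pair binds DNA at short sites with the core letters ACGTG or GCGTG and raises the transcription of genes for glucose uptake, glycolysis, the handling of mitochondria and vessel growth. In the retina the growing neurons run short of oxygen before vessels reach them, and photoreceptors make lactate from glucose even in the presence of oxygen.

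The letters ACGTG were sought in the promoters of the members (RefSeq, GRCm38.p6, 250 bases before to 50 bases after each start site, both strands, where CACGT is the match on the other strand and CACGTG holds a match on each, printed as 1 stretch). Of the 41 genes, 35 were in the promoter table, and Epas1, Slc2a3, Bnip3l, Ndrg1, Hmox1 and Bhlhe40 were not. At least 1 promoter with these letters was found for 23 of 35 genes (65.7%), against 21.8% of 27025 genes in the table, and 27 of 52 member promoters (51.9%) held them, against 19.6% of all 32851 promoters. By list they were found for 3 of 5 genes of the HIF pathway, 10 of 14 HIF targets and 10 of 16 glycolytic enzymes. The other form of the core, GCGTG, was not sought, so these shares do not cover every core site. The base composition of the promoters was not compared, and a match is a string of letters, not a measured binding site. Below are the promoters of the pair of HIF targets with the smallest p-values (Ankrd37 and Adm), of Egln1, the gene of the HIF pathway whose groups did not overlap, of the pair of glycolytic enzymes with the largest fold changes (Pgk1 and Pgam1), and of Ldha, which carried more such stretches than the others printed here and had nearly equal signals in both groups. Capitals mark ACGTG or CACGT, and each sequence runs 5′ to 3′ on the strand of its gene.
Ankrd37, chr8:45999801-46000100, minus strand: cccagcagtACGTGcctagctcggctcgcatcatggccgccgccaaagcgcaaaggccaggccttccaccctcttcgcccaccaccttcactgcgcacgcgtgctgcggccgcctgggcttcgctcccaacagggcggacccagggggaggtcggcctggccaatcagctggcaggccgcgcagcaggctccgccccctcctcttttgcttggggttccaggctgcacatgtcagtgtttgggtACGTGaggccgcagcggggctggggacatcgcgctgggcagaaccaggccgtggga
Adm, chr7:110627407-110627706, plus strand: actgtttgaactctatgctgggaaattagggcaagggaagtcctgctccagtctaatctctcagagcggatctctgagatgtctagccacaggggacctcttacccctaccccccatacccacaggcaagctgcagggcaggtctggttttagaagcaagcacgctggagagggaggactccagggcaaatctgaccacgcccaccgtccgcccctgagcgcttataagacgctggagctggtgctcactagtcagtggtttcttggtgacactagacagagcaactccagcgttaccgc
Egln1, chr8:124949205-124949504, minus strand: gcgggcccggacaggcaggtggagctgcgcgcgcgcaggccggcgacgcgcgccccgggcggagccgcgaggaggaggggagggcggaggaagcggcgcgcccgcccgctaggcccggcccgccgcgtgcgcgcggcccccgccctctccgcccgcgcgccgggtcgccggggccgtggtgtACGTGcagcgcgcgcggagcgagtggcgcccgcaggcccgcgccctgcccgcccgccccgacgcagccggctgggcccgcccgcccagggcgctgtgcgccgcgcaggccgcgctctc
Pgk1, chrX:106186850-106187149, plus strand: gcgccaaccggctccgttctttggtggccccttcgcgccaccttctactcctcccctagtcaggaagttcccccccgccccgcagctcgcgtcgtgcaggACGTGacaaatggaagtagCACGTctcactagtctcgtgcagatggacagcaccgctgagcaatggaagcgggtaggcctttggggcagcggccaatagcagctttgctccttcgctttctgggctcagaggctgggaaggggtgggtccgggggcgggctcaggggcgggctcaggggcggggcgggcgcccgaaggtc
Pgam1, chr19:41911621-41911920, plus strand: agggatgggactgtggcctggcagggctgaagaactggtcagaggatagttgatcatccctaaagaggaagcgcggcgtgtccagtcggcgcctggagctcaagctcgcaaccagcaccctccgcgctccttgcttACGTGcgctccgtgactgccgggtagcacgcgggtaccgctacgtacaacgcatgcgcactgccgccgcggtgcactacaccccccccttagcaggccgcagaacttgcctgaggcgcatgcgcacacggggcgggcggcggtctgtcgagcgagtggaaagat
Ldha, chr7:46845554-46845853, plus strand: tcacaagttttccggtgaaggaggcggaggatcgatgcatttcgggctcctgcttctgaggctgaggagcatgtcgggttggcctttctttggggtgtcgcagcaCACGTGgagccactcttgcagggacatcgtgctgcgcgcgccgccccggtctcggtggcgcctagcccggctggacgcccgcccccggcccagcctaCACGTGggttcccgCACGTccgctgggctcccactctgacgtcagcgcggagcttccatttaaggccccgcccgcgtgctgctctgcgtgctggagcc

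The first letter of the match lay at -241 and -6 from the start site in the Ankrd37 promoter, at -68 in that of Egln1, at -150 and -131 in that of Pgk1 and at -114 in that of Pgam1. The Adm window held no match to ACGTG, though it holds CACGC, which is GCGTG on the other strand and was not sought in any window. The Ldha promoter printed here held 3 stretches, and a second Ldha promoter in the table, at chr7:46846832-46847131, held none.

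The values below are signals that the authors normalized between arrays, on a linear scale with the background included, and fold changes are log2 differences of the retinas labelled Lrp5-/- minus WT retinas from limma, with p-values adjusted by the Benjamini-Hochberg method over all 20721 expressed probes. Before normalization the mean signal was 313 to 319 on the arrays labelled Lrp5-/- and 199.97 to 431 on the WT arrays. WT replicate 1 stood apart, with the lowest mean signal, 18167 detected probes against 20286 to 21388 on the other 5 arrays, and a residual SD of 0.17 on the log2 scale against 0.10 to 0.13. The expressed probe of Lrp5 read 99.2, 91.3 and 95.7 in the retinas labelled Lrp5-/-, against 46.8, 59.5 and 56.1 in WT retinas (log2 fold change 0.82, adjusted p = 0.0127 in limma), a direction opposite to a knockout label. It was detected on 3 arrays labelled Lrp5-/- and on 1 WT array. The group where it was high was thus enough to pass the filter, and its p-value, which rests in part on signals at background, is given as a description. Whether this probe lies in the sequence that the allele lost is not given in the sources used here, and if it lies elsewhere it says nothing of the genotype. The other 3 Lrp5 probes were undetected on every array. Markers of endothelium, the cells whose growth LRP5 is known to serve, were lower in sum in the retinas labelled Lrp5-/-, with values given among the cell type markers. Every direction below is that of the labels. In bulk RNA of whole retina, fewer cells of a type and less RNA per cell cannot be told apart. Signals of different probes are not set against each other.

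The expressed members lay mostly on the higher side in the retinas labelled Lrp5-/-, by small amounts, and no single probe passed the adjusted threshold. Of 34 expressed genes, each given by its brightest expressed probe, 30 (88.2%) had a log2 fold change above 0, against 47% of all expressed genes, and the median was 0.21 for these genes and -0.01 for all expressed genes. Other scalings move all genes together. With arrays scaled to a common median 34 of 34 members and 82.3% of all expressed genes were above 0, and without normalization 33 of 34 members and 65.4% of all. Set against the median of all expressed genes of the same fit, 32 of 34 members lay above it under each of these scalings and 31 of 34 with the normalized signals. In 11 genes (32.4%) every retina labelled Lrp5-/- lay above every WT retina, against 5.15% of all expressed genes, and in 0 genes did every one lie below, against 5.7%. At an unadjusted p under 0.05 in limma, 14 genes (41.2%) were higher, against 2.08% of all expressed genes, and 0 were lower, against 2.94%. Of all 57 expressed member probes 0 had an adjusted p under 0.05 in limma, where 0.029% of all expressed probes passed as higher and 0.0869% as lower. At an unadjusted p under 0.05 limma gave 23 member probes, all higher (2.43% of all expressed probes), and an unmoderated test of each probe on the same values gave 15, all higher (2.91%), with 0 after adjustment. Past both an unadjusted p of 0.05 and a fold of 1.3, 4 member probes were higher (0.261% of all expressed probes), those of Ankrd37, Adm and Hmox1 and the dimmer one of Pdk1. With groups of 3 the smallest two-sided p that an exact permutation test can give for a single gene is 0.1.

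A gene that passed the filter only where it was high had to differ, so the filter was looked at apart. Of the 34 genes 31 were detected on all 6 arrays, and the others were Epas1 (2 of 3 WT arrays), Hmox1 (1 of 3) and Adm (0 of 3), each detected on all 3 arrays labelled Lrp5-/-. Among the 31 genes 27 had a log2 fold change above 0 (46.2% of all 9695 genes detected on every array). In 9 of them (29%) the groups lay apart on the higher side, against 4.86% of those genes, and 12 (38.7%) were higher at an unadjusted p under 0.05 in limma, against 1.74%. The probe counts above also include probes undetected on WT arrays, among them those of Adm and Hmox1 and a dim one of Hif1a. In a fit of only the probes detected on all 6 arrays, 19 of 50 member probes were higher at an unadjusted p under 0.05 in limma (2.15% of all probes in it). Of the 16 genes with several expressed probes, 12 had all of them above 0. The same share over all genes was not computed, and probes of the same gene are not independent, so this count is a description. Without WT replicate 1 the fold change was above 0 for 31 of 34 genes (50.5% of all expressed genes), with 17 genes whose groups did not overlap on the higher side (12.4% of all expressed genes) and 1, Aldoc, on the lower side (13.1%). In that fit 1 member probe, that of Adm, had an adjusted p under 0.05 (0.0437 in limma, where 0.111% of all expressed probes passed as higher), but Adm entered the test only through the arrays labelled Lrp5-/-, so this call is no support for a difference. Without WT replicate 1 the log2 fold change of 9 members moved by more than 0.1. It was higher for Pfkl (0.38, against 0.22 with all arrays), P4ha1 (0.23, against 0.10) and Pkm (0.21, against 0.09). It was lower for Hmox1 and Bhlhe40, described with the targets, and for Pgk1 (0.26, against 0.37), Higd1a (0.04, against 0.14), Aldoc (-0.17, against -0.04) and Hk1 (-0.09, against 0.05).

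**Figure D1:**
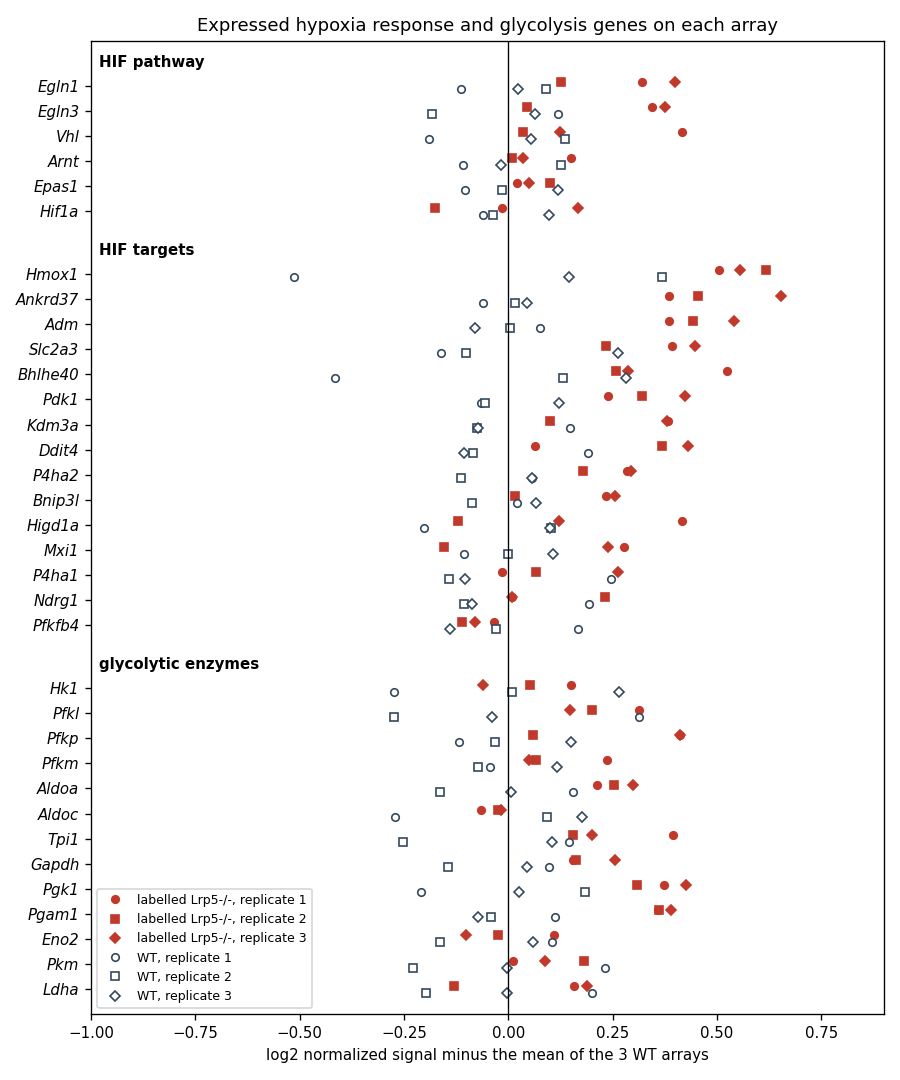
Log2 normalized signal of the brightest expressed probe of each of the 34 expressed genes on each array, minus the mean of the 3 WT arrays (x axis, log2 units), with filled red symbols for the retinas labelled Lrp5-/- and open blue symbols for WT retinas. Most filled symbols of HIF targets lie to the right of 0, while Hif1a, Aldoc, Eno2 and Ldha have both groups interleaved.

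The genes that make and control HIF gave mostly small differences. The mRNA of Hif1a, the oxygen sensitive subunit, had signals of 649.6, 581 and 737 in the retinas labelled Lrp5-/-, against 630.0, 639.9 and 702 in WT retinas. The groups interleave, and the log2 fold change was -0.01 (95% interval -0.24 to 0.22, adjusted p = 0.999). A second, dim Hif1a probe (ILMN_2511256) had signals of 64.0, 61.8 and 71.3 in those labelled Lrp5-/-, against 55.6, 52.7 and 56.5 in WT. It was undetected on every WT array (log2 fold change 0.26, adjusted p = 0.913 in limma), and the lower bound of its fold was 1.04. Such a bound compares the mean of the brighter group, on the log2 scale, with the dimmest signals that counted as detected on the arrays of the other group. It is a point value without an error. Here the signals of 64.0 and 61.8 lay below 69.8, the dimmest detected signal on WT replicate 1. Since this dim Hif1a probe entered the test only through the arrays where it was high, its p-value is given as a description.

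Epas1, the other alpha subunit, had signals of 65.8, 69.5 and 67.1 in the retinas labelled Lrp5-/-, against 60.3, 64.2 and 70.4 in WT retinas, close to background (log2 fold change 0.06). Arnt, the stable partner, had 675, 611 and 623 in the retinas labelled Lrp5-/-, against 564, 663 and 600.0 in WT retinas (0.06). Of 4 further expressed Arnt probes, 3 had a fold change below 0, the lowest being ILMN_2607563 with 63.0, 63.3 and 56.7 in those labelled Lrp5-/-, against 66.1, 65.1 and 65.5 in WT (-0.11, adjusted p = 0.987), the only member probe whose groups did not overlap on the lower side (4.96% of all expressed probes). The Arnt probes thus share no direction.

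Among the genes that remove HIF, Egln1, the main oxygen sensing hydroxylase and itself a HIF target, was the only one of the 6 pathway genes whose brightest probe kept the groups apart. Of all expressed genes 5.15% had the groups apart on the higher side. The brightest Egln1 probe read 178, 156 and 189 in the retinas labelled Lrp5-/-, against 132, 152 and 145 in WT retinas (log2 fold change 0.28, SE 0.10, adjusted p = 0.922). Its other expressed probes had 143, 139.6 and 163 in those labelled Lrp5-/-, against 121, 124 and 126 in WT, and 99.8, 92.3 and 106 in those labelled Lrp5-/-, against 73.6, 83.7 and 88.6 in WT. All 3 probes keep every retina labelled Lrp5-/- above every WT retina, with log2 fold changes of 0.26 to 0.28, though the margin over WT replicate 2 was narrow for the brightest.

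Egln3, a further hydroxylase induced by HIF, stood at 0.25 on the log2 scale (adjusted p = 0.987). Vhl, the ubiquitin ligase subunit that binds hydroxylated HIF, had 351, 269.7 and 286.5 in the retinas labelled Lrp5-/-, against 230.4, 289 and 273 in WT retinas (0.19, adjusted p = 0.987). Both overlap between groups, and for Vhl the arrays numbered 1 were the highest of the retinas labelled Lrp5-/- and the lowest of the WT retinas. Over the 6 pathway genes 5 were above 0 (47% of all expressed genes). The median of the 6 was 0.13 on the log2 scale, or 0.05 when WT replicate 1 is left out. With all arrays 1 gene was higher at an unadjusted p under 0.05 in limma (2.08% of all expressed genes), and 0 passed the adjusted threshold.

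The HIF targets had the largest median of the 3 lists, a difference between lists that was not tested. Of 15 expressed targets 14 had a log2 fold change above 0 (47% of all expressed genes), with a median of 0.29 and a range of -0.07 to 0.56. At an unadjusted p under 0.05 in limma 9 were higher (2.08% of all expressed genes) and 0 lower (2.94%). The smallest adjusted p among them was 0.134. The median over the 15 targets, as log2 signal minus the mean of the WT arrays, was 0.29, 0.23 and 0.29 on the single arrays labelled Lrp5-/-, against 0.02, -0.06 and 0.06 on the WT arrays.

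Ankrd37, an ankyrin repeat protein whose gene is a direct HIF target, had the smallest p-value of the members. Its probe read 644, 676 and 776 in the retinas labelled Lrp5-/-, against 473, 498 and 509 in WT retinas. The means were 699 ± 68.7 in those labelled Lrp5-/- and 493 ± 18.4 in WT (SD, n = 3 each). The groups lay well apart, with a fold of 1.41 (log2 fold change 0.50, SE 0.10, adjusted p = 0.134). With any 1 array left out the log2 fold change was 0.42 to 0.55 and the adjusted p from limma 0.0967 to 0.7. With arrays weighted by their quality the adjusted p was 0.0303, in a fit where 0.116% of all expressed probes passed as higher, and over all alternatives it was 0.0303 to 1.

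Adm encodes adrenomedullin, a secreted peptide that widens vessels and supports their growth, and it also marks endothelial tip cells. Its probe read 68.4, 71.2 and 76.2 in the retinas labelled Lrp5-/-, against 55.2, 52.5 and 49.5 in WT retinas. The means were 71.9 ± 3.95 in those labelled Lrp5-/- and 52.4 ± 2.85 in WT (SD, n = 3 each). The groups were apart (log2 fold change 0.46, SE 0.09, adjusted p = 0.141 in limma), but the probe was undetected on every WT array. The lower bound of its fold, a point value without an error, was 1.14. With the background removed by the neqc method the fold was 1.71. Since the probe entered the test only through the arrays where it was high, its p-values are given as a description.

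Pdk1, a kinase that holds back the oxidation of pyruvate in mitochondria, had 237, 251 and 269.5 in the retinas labelled Lrp5-/-, against 192, 193 and 219 in WT retinas (log2 fold change 0.33, SE 0.10, adjusted p = 0.69). Its dimmer probe had 99.8, 72.6 and 116 in those labelled Lrp5-/-, against 69.0, 65.6 and 66.8 in WT (0.49, adjusted p = 0.716). Both probes kept the groups apart. P4ha2, a subunit of the enzyme that hydroxylates collagen, had 213, 198 and 214 in the retinas labelled Lrp5-/-, against 182, 162 and 182 in WT retinas, with no overlap (0.25, adjusted p = 0.924). Its sister subunit P4ha1 had a log2 fold change of 0.10 and overlapping groups.

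The distance between groups depended on WT replicate 1 for Hmox1 and Bhlhe40. Hmox1, the haem degrading enzyme of the oxidative stress response, had 74.7, 80.8 and 77.3 in the retinas labelled Lrp5-/-, against 36.9, 67.9 and 58.2 in WT retinas. It was detected on 1 of the 3 WT arrays, so its log2 fold change of 0.56 (SE 0.18, adjusted p = 0.816) rests in part on signals at background. WT replicate 1 was far below the other WT arrays, and without it the value was 0.30 (adjusted p = 0.348 in limma). Bhlhe40, a transcriptional repressor of the circadian and hypoxia responses, had 268, 223 and 228 in the retinas labelled Lrp5-/-, against 139.9, 204 and 227 in WT retinas (0.36, adjusted p = 0.987), and without WT replicate 1 its log2 fold change was 0.15. For Bhlhe40, WT replicate 3 lay inside the range of the retinas labelled Lrp5-/-.

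Slc2a3, the glucose transporter GLUT3 of neurons, had 1043, 934 and 1082.5 in the retinas labelled Lrp5-/-, against 710.2, 739.8 and 952.5 in WT retinas (log2 fold change 0.36, adjusted p = 0.838). Ddit4, an inhibitor of mTORC1 signalling induced by stress, had 1209, 1495 and 1559 in the retinas labelled Lrp5-/-, against 1321, 1091 and 1076 in WT retinas (0.29, adjusted p = 0.987). Kdm3a, a histone H3 lysine demethylase, had 1247.5, 1026 and 1246 in the retinas labelled Lrp5-/-, against 1059.7, 909 and 910.4 in WT retinas (0.29, adjusted p = 0.944). In each of these 3 genes 1 WT array reached into the range of the retinas labelled Lrp5-/-, which was WT replicate 3 for Slc2a3 and WT replicate 1 for Ddit4 and Kdm3a. All 3 expressed Kdm3a probes had fold changes above 0, from 0.23 to 0.31.

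The other expressed targets overlapped between groups and passed no threshold. Bnip3l, a receptor for the removal of mitochondria, had a log2 fold change of 0.17, Higd1a, a mitochondrial protein of the respiratory chain, 0.14, the MYC antagonist Mxi1 0.12 and the stress response gene Ndrg1 0.08. Pfkfb4, which sets the level of an activator of phosphofructokinase, was the only target below 0, with 408, 387 and 395.5 in the retinas labelled Lrp5-/-, against 469.6, 409.5 and 379.6 in WT retinas (-0.07). The lactate exporter Slc16a3, the carbonic anhydrase Car9, the mitophagy receptor Bnip3 and the bifunctional enzyme Pfkfb3, all known HIF targets, were not above background in either group.

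**Figure D2:**
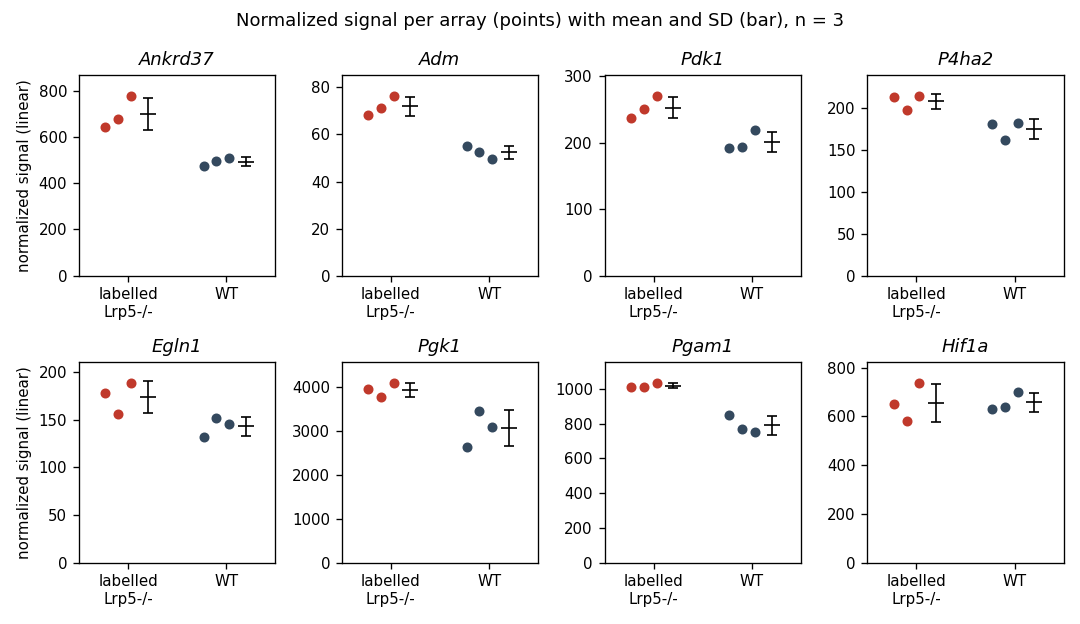
Normalized signal (y axis, linear, from 0) of 8 members on each array, retinas labelled Lrp5-/- left and WT retinas right, with the mean and SD of the 3 arrays as a bar. Ankrd37, Adm, Pdk1, P4ha2, Egln1, Pgk1 and Pgam1 keep the groups apart, and for Hif1a the groups interleave.

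The values of the glycolytic enzymes varied from step to step. Of 13 expressed enzymes 11 had a log2 fold change above 0 (47% of all expressed genes), with a median of 0.19 and a range of -0.04 to 0.37. The groups lay apart on the higher side for 5 (5.15% of all expressed genes). At an unadjusted p under 0.05 in limma 4 were higher (2.08% of all expressed genes). The smallest adjusted p was 0.344. On single arrays the median over the enzymes, as log2 signal minus the mean of the WT arrays, was 0.21, 0.16 and 0.19 in the retinas labelled Lrp5-/-, against 0.11, -0.14 and 0.05 in WT retinas. WT replicate 2 was the lowest, and without it the median log2 fold change was 0.08.

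The early steps of the pathway consume ATP. Hk1, the hexokinase of neurons, had a log2 fold change of 0.05. Of the subunits of phosphofructokinase, the liver form Pfkl had 0.22 and the muscle form Pfkm 0.12, both with overlapping groups on the brightest probe. A dimmer Pfkl probe had 0.17 and a dimmer Pfkm probe 0.21, both with the groups apart, while a further Pfkm probe had -0.02. The platelet form Pfkp had 974.7, 764 and 974.8 in the retinas labelled Lrp5-/-, against 675, 716 and 814 in WT retinas (log2 fold change 0.29, adjusted p = 0.982), where WT replicate 3 lay above the lowest retina labelled Lrp5-/-. Its dimmer probe kept the groups apart, with 299, 302 and 257 in those labelled Lrp5-/-, against 228, 223 and 249.7 in WT (0.29).

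Aldolase A (Aldoa), which splits the hexose into trioses, had 4062, 4180.5 and 4316 in the retinas labelled Lrp5-/-, against 3908, 3133 and 3527 in WT retinas (log2 fold change 0.25, adjusted p = 0.968). The groups were apart, by a narrow gap to WT replicate 1. Aldolase C (Aldoc), the form of neurons and glia, had a log2 fold change of -0.04, with 1348, 1384 and 1393 in the retinas labelled Lrp5-/- inside the WT range of 1168 to 1593. Triose phosphate isomerase (Tpi1) had 11267, 9543 and 9847 in the retinas labelled Lrp5-/-, against 9476, 7191 and 9216 in WT retinas, with no overlap (0.25, adjusted p = 0.987). A second Tpi1 probe had 3509, 3671 and 3726 in those labelled Lrp5-/-, against 3228, 2698 and 2633 in WT (0.36, adjusted p = 0.63), and with arrays weighted by quality its adjusted p was 0.0407.

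The enzymes of the energy yielding steps included the largest values of the list. Gapdh, often used as a reference gene, had 7247, 7287 and 7765 in the retinas labelled Lrp5-/-, against 6962, 5891 and 6718 in WT retinas (log2 fold change 0.19, adjusted p = 0.987). Phosphoglycerate kinase (Pgk1), which makes the first ATP, had 3952, 3774 and 4097 in the retinas labelled Lrp5-/-, against 2638, 3462 and 3105 in WT retinas (0.37, SE 0.11, adjusted p = 0.702). Both genes kept the groups apart, and so did a dim second Pgk1 probe, with 107, 108 and 111 in those labelled Lrp5-/-, against 92.6, 85.3 and 83.7 in WT (0.32, adjusted p = 0.564).

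Phosphoglycerate mutase (Pgam1) had 1011, 1013 and 1034 in the retinas labelled Lrp5-/-, against 853, 767 and 751 in WT retinas (log2 fold change 0.37, SE 0.09, adjusted p = 0.344). With arrays weighted by quality its adjusted p was 0.0374, but a dimmer Pgam1 probe (ILMN_1232278) overlapped between groups, at 0.04. The last steps did not keep the groups apart. Enolase 2 (Eno2), the neuronal form, had a log2 fold change of -0.01, and pyruvate kinase (Pkm) had 8286, 9316 and 8735.5 in the retinas labelled Lrp5-/-, against 9647, 7011 and 8205 in WT retinas (0.09), with a second probe near background at -0.01. Lactate dehydrogenase A (Ldha), which turns pyruvate into lactate, had 11537.5, 9449 and 11781 in the retinas labelled Lrp5-/-, against 11876, 9017 and 10321 in WT retinas (0.07, 95% interval -0.20 to 0.34, adjusted p = 0.99). The highest of the 6 Ldha signals was that of WT replicate 1.

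**Figure D3:**
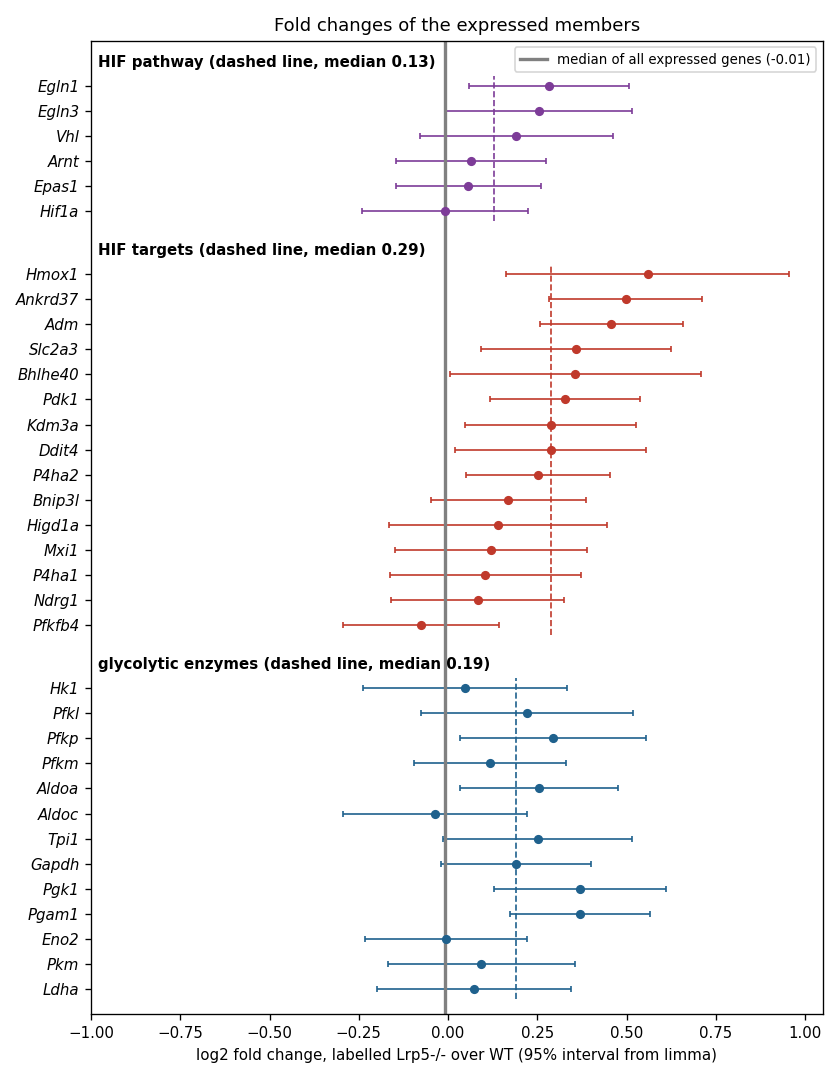
Log2 fold change of the 34 expressed genes, retinas labelled Lrp5-/- over WT retinas (x axis, with 95% intervals from limma that are not adjusted for the number of genes), by list, with the list median dashed and the median of all expressed genes as a grey line. HIF targets spread from -0.07 to 0.56 around a median of 0.29, glycolytic enzymes around 0.19 and pathway genes around 0.13.

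Other genes of the same pathways, on lists drawn up beside the members, had medians closer to that of all expressed genes. Of 25 expressed further hypoxia targets 19 were above 0 (47% of all expressed genes), with a median log2 fold change of 0.10. At an unadjusted p under 0.05 in limma 5 were higher (2.08% of all expressed genes) and 1 lower (2.94%). Of these targets 1, Angptl4, passed the adjusted threshold, as lower (0.144% of all expressed genes). Of 25 expressed further genes of glycolysis and pyruvate use 14 were above 0, with a median of 0.04. Of 11 expressed further HIF pathway genes, 5 were above 0 and 6 below.

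Vegfa, the vessel growth factor that HIF induces, had 2719, 2137.5 and 2783 in the retinas labelled Lrp5-/-, against 2352, 1802 and 1677 in WT retinas on its brightest probe (log2 fold change 0.40, adjusted p = 0.906), where WT replicate 1 reached above the lowest retina labelled Lrp5-/-. A dimmer Vegfa probe (ILMN_3121255) kept the groups apart, with 618.3, 537 and 639 in those labelled Lrp5-/-, against 481, 403 and 386 in WT (0.50, adjusted p = 0.233, and 0.0274 without WT replicate 1). Slc2a1, the glucose transporter GLUT1 of the blood-retina barrier and of glia, had 4385, 3231 and 4083 in the retinas labelled Lrp5-/-, against 3908.5, 3228 and 3985 in WT retinas (0.07). The groups of Slc2a1 interleave.

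Angptl4, a secreted inhibitor of lipoprotein lipase that HIF and fatty acid sensors induce, fell to 77.4, 75.9 and 79.8 in the retinas labelled Lrp5-/-, against 138, 134 and 149.8 in WT retinas (log2 fold change -0.85, SE 0.09, adjusted p = 0.00258). With any 1 array left out its adjusted p was 0.00151 to 0.0402, but it did not pass with arrays scaled to a common median (adjusted p = 0.978) or by the unmoderated test (0.303), where 0 of all 20721 probes passed, nor without normalization (1). Ak4, a mitochondrial adenylate kinase, had 167, 136 and 179 in the retinas labelled Lrp5-/-, against 94.0, 87.4 and 121 in WT retinas (0.67, adjusted p = 0.164). Stc1, a secreted glycoprotein, had 179, 136 and 176 in the retinas labelled Lrp5-/-, against 123, 115 and 126 in WT retinas (0.42, adjusted p = 0.564). The groups of Ak4 and Stc1 lay apart, as did those of the mitochondrial protein Fam162a (0.34, adjusted p = 0.734), the muscle phosphoglycerate mutase Pgam2 (0.35, adjusted p = 0.924) and the hydroxylase Egln2 (0.23, adjusted p = 0.966). These are the further genes with the smallest p-values. Among the 11 further HIF pathway genes the groups lay apart on the higher side for 2, Egln2 and the ubiquitin ligase subunit Eloc (0.23), against 5.15% of all expressed genes. They lay apart on the lower side for 2, Cited2, which competes with HIF for its coactivators (-0.18), and Hif3a, an alpha subunit (-0.14), against 5.7%. Pfkfb2 was the 1 of 25 further glycolysis genes that was lower at an unadjusted p under 0.05 in limma (-0.30, adjusted p = 0.987), against 2.94% of all expressed genes. Eloc, Cited2, Hif3a and Pfkfb2 were named after their values were seen.

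Summed marker signals lay apart between the groups for some cell types. The summed signal of endothelium markers (16 of 19 expressed) was 2380 to 2719 in the retinas labelled Lrp5-/- and 3321 to 4062 in WT retinas, with a median log2 fold change of -0.51, and it lay apart with any 1 of the genes left out. Adgrl4 (-1.16, adjusted p = 0.0046) and Cd93 (-0.90, adjusted p = 0.0302) fell in limma. Emcn went the other way, with its groups apart on the higher side (0.25, adjusted p = 0.982 in limma), and Kdr was near equal (-0.10). The sum of tip cell markers (7 of 10 expressed, Adm among them) was 1227 to 1340 in the retinas labelled Lrp5-/- and 1132 to 1214 in WT retinas. Without Adm it was 1151 to 1271 in the retinas labelled Lrp5-/-, against 1082 to 1162 in WT retinas, and the groups overlap, as they do without Esm1, Plvap or Unc5b. Plvap (0.83, adjusted p = 0.0046) rose in limma, while Pdgfb had -0.33 and Cxcr4 -0.05. Esm1 had 0.64 (adjusted p = 0.0354 in limma). Its WT signals of 52.6, 56.1 and 48.3 lay below the lowest detected signal of each WT array (69.8, 58.8 and 60.8). Esm1 thus entered the test only through the arrays labelled Lrp5-/-, so its call is no support for a difference. The sum of astrocyte markers (4 of 6) was 664 to 744 in the retinas labelled Lrp5-/- and 799 to 853 in WT retinas. Without Pdgfra it was 238 to 253 in the retinas labelled Lrp5-/-, against 243 to 284 in WT retinas, and the groups overlap. Sums for Müller glia (7 of 7 expressed, 15823 to 17185 labelled Lrp5-/-, 14975 to 18095 WT), rods (8 of 10, 64811 to 67118 labelled Lrp5-/-, 63490 to 78650 WT) and microglia (6 of 8, 732 to 795 labelled Lrp5-/-, 724 to 843 WT) overlapped between the groups, and so did those for cones, inner neurons, pericytes, pigment epithelium, lens and red cells. The cone gene Arr3 fell in limma (-0.64, adjusted p = 0.0329), though the cone sums overlap. The pericyte sum was 549 to 651 in the retinas labelled Lrp5-/- and 503 to 554 in WT retinas. It lay apart on the higher side without Rgs5 or without Abcc9, and overlapped without Cspg4 or without Acta2. Among the defining markers, Tie1, Erg and Sox17 of endothelium, Apln and Dll4 of tip cells and Pax2 of astrocytes did not pass the filter, while the rod genes Nrl and Sag and the Müller glia genes Rlbp1 and Glul were expressed. The part of these cell types in the values of the members was not tested.

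The place of the lists above the rest of the genes held under the other ways of processing that were run, though its size did not. Some of these ways, such as the intensity trend or the unmoderated test, leave every fold change as it is and so could not move the lists. Relative to the median of all expressed genes, which moved to 0.14 with arrays scaled to a common median and to 0.06 without normalization, the median of HIF targets was 0.24 to 0.32, that of glycolytic enzymes 0.10 to 0.28 and that of pathway genes 0.05 to 0.20.

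**Figure D4:**
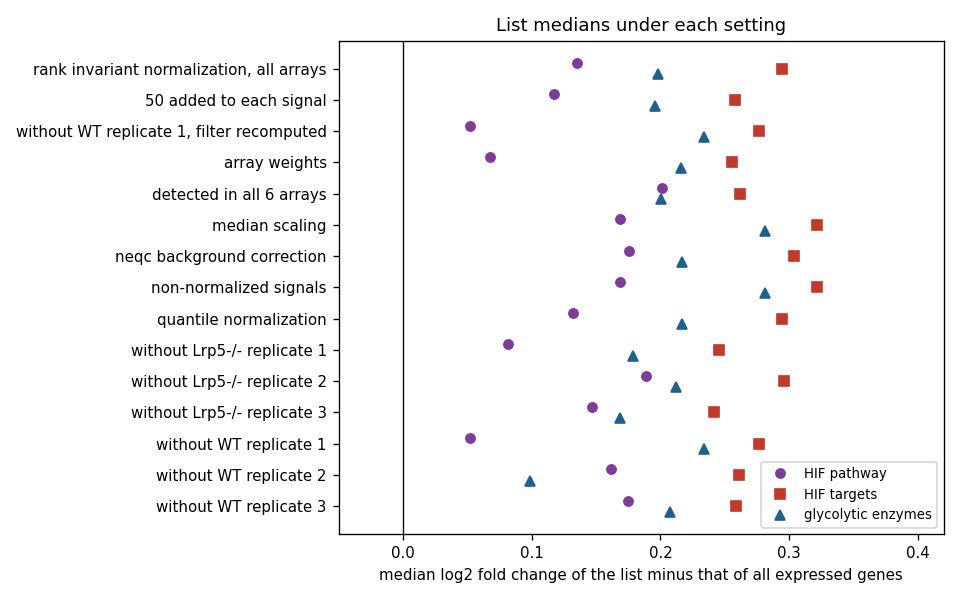
Median log2 fold change of each list minus that of all expressed genes (x axis) under each way of processing and with each array left out (1 line each). HIF targets are the furthest to the right on each line, from 0.24 to 0.32, and glycolytic enzymes are lowest without WT replicate 2, at 0.10.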

How the data were processed

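Total RNA of 3 retinas labelled Lrp5-/- and 3 WT retinas at P8 was amplified, biotin labelled and hybridized by the authors, who processed the scans in Bead Studio. They deposited the signal intensity of 45281 probes both before and after rank invariant normalization between arrays, on a linear scale, with the same deposited detection p-values in both tables. The deposited series table equals the normalized one (0 cells differ). The platform annotation gives 1 gene symbol for 34885 probes, several for 18 and none for 10378.

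Signals were floored at 16 (1 value), log2 was taken, and 20721 probes with a detection p under 0.05 on at least 3 of 6 arrays went into limma 3.58.1 (R 4.3.3, lmFit then eBayes, without a block), with Benjamini-Hochberg adjustment. Where a gene has several expressed probes, the one of highest mean log2 signal stands for it. The script was tested on simulated data. Values of every array are given for members past an unadjusted p of 0.05 or with groups that do not overlap and for fixed key genes (Hif1a, Epas1, Arnt, Vhl, Egln1, Adm, Ankrd37, Pdk1, Gapdh, Pgk1, Pkm and Ldha), and for Vegfa, Slc2a1 and up to 6 other pathway genes with the smallest p. Members and lists were chosen with earlier results of these data known. Alternatives were quantile, neqc and median scaling, no normalization, another floor, 50 added to each signal, other filters, an intensity trend, array weights, an unmoderated test of each probe with equal variances, the replicate number as a block, 1 probe per gene, each array left out and, chosen after seeing the data, the filter recomputed without WT replicate 1, counts over genes detected on every array and marker sums with single genes left out. SAM, which the methods name for the arrays, and a slide block, for which the tables name no slide, were not run.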

Additional observations from a re-analysis of the deposited data

How the results depend on the processing

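The direction of 26 of 34 expressed members held under every alternative that gave a value (21, or 20 for Adm and Hmox1, which were not detected on all 6 arrays), and the sign of Aldoc, Eno2, Epas1, Hif1a, Hk1, Ldha, Pfkfb4 and Pkm, none past an unadjusted p of 0.05, changed in 28 of 711 values. Several alternatives could not change a direction, so these counts overstate how far it was tried. The series table, another floor, no filter, the intensity trend, 1 probe per gene, the unmoderated test and the replicate block left list medians unchanged. The filter recomputed without WT replicate 1 gave the same list medians as leaving out that array alone. Member probes called higher numbered 0, but 1 without WT replicate 1 (Adm, also with the filter recomputed) and 4 with array weights (Ankrd37, Adm, Tpi1 and Pgam1), where 0.116% of all expressed probes passed as higher. Adm entered these tests only through the arrays labelled Lrp5-/-, so its calls are no support for a difference. With each array left out the count of member probes called higher was 0 to 1. Past an unadjusted p of 0.05 and a fold of 1.3 there were 4 probes as higher, but 1 with 50 added or with detection required on all 6 arrays, 2 by the unmoderated test, 7 with array weights or with the filter recomputed without WT replicate 1, 10 with median scaling, 12 with neqc and 0 without normalization, and 3 to 8 with each array left out. Of all expressed probes 0.261% passed both as higher in the main fit, and 0.468% without WT replicate 1. No such share is given for the other settings, so the counts there cannot be read as a result about the members. The share of all probes higher at that p alone also moved, from 2.43% in the main fit. It was 4.14% with array weights, 3.17% with neqc, 0.594% with median scaling and 0.0241% without normalization. With each array left out it was 1.34% to 3.71%. List medians with median scaling and without normalization were 0.46 and 0.38 for HIF targets, 0.42 and 0.34 for glycolytic enzymes and 0.31 and 0.23 for pathway genes. With each array left out they were 0.23 to 0.29 for HIF targets, 0.08 to 0.24 for glycolytic enzymes, where 0.083 is the value without WT replicate 2, and 0.05 to 0.18 for pathway genes, where 0.05 is the value without WT replicate 1. The cause of these moves was not tested. The replicate numbers did not pair the samples (correlations of deviations -0.21, -0.15 and -0.28), and with the replicate block 0 member probes were called and 13 of all probes. With the background removed by neqc the folds of Adm, Hmox1 and Epas1 were 1.71, 1.70 and 1.09, against 1.37, 1.47 and 1.04 with it included. For Hmox1 and Epas1 a larger fold is not established, since their log2 fold changes were 0.30 and 0.005 without WT replicate 1.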

Other observations

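Among the members below background on every array, a Car9 probe (ILMN_2874084) had signals of 56.9, 54.1 and 55.3 in the retinas labelled Lrp5-/-, against 43.0, 47.9 and 46.1 in WT retinas, and a Slc16a3 probe (ILMN_3149256) had 55.8, 55.0 and 52.1 in the retinas labelled Lrp5-/-, against 41.6, 50.1 and 48.6 in WT retinas. They were not tested, since none of these values was above background, and the other 2 probes of each gene overlapped between the groups. Both probes were named after their values were seen, and the share of undetected probes with groups apart was not counted. The median signal of undetected probes was 49.2, 48.7 and 47.7 on the arrays labelled Lrp5-/-, against 46.9, 48.4 and 47.4 on the WT arrays.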
